A study of Mus musculus with 6 samples.

Results

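The joining (J) genes of the T cell receptor alpha chain were examined in total RNA of mouse splenocytes from Top3b-KO and WT animals. They were taken from the deposited count table as every symbol that begins with Traj followed by a number, which gave 60 of 56413 symbols, numbered from 1 to 61. Traj10 was not analysed here. The symbol alone decided membership, but the family as a whole was selected on values of these same libraries, the CPM of its members in each genotype. The differences between genotypes are therefore a description, and nothing is supported with them.

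Top3b is the gene of topoisomerase III-beta, whose part in immune regulation and tumour formation was the question of the study. The Top3b-KO group had 3 libraries labelled with that genotype, and the WT group had 3 libraries labelled wild-type. Both groups were fresh total splenocytes, and neither the age of the animals nor the mouse strain was given in the sources used here. Nor do the labels say which part of Top3b was deleted, or whether the 3 libraries of a genotype came from separate animals, so p-values measure the spread between these libraries.

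A developing alpha beta T cell joins a variable (V) gene, Trav, to a J gene by V(D)J recombination, and splicing then joins that VJ exon to the constant gene Trac. The DNA between the chosen V and J genes is removed. The J genes between the chosen one and Trac stay in the chromosome and in the primary transcript until they are spliced out. Early rearrangements use J genes at the V side, with high numbers, and later rounds can replace them with J genes nearer Trac, with low numbers. RNA depleted of ribosomal RNA without selection for poly(A) tails also holds unspliced transcripts.

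All 60 members matched a mouse J segment of GENCODE M21, on the plus strand of chromosome 14, where they lie in the order of their numbers with Traj1 nearest to Trac. That annotation uses another genome build than the mm39 of the submitters' processing notes, so no positions are given. It lists 51 members as J genes and 9 as J pseudogenes, of 29 to 72 bases, and 0 other genes from the first to the last of them. A J segment that can be used typically encodes phenylalanine or tryptophan followed by glycine, any residue and glycine. This is the F/W-G-X-G motif that folds the end of the variable domain. Its codons were searched as TTTGGNNNNGGN, TTCGGNNNNGGN and TGGGGNNNNGGN, with no account of reading frame. On the sense strand 45 of 60 members (75.0%) held one of them, 44 of 51 J genes and 1 of 9 J pseudogenes, and on the opposite strand 0 of 60 did.

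The first 3 segments shown are those with the highest counts, the next 2 are the J genes of the invariant chains of NKT and MAIT cells, and the last 4 are the 3 members of smallest p among those higher in Top3b-KO and the one of smallest p among those lower. They are written 5′ to 3′ from the GENCODE M21 transcripts (GRCm38), with capitals on the motif match where one was found.
Traj12: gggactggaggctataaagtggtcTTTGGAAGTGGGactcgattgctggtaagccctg
Traj19: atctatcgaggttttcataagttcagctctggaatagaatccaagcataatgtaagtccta
Traj14: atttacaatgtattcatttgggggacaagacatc
Traj18: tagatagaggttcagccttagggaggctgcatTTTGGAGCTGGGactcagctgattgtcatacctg
Traj33: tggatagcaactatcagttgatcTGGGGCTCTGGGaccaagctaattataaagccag
Traj22: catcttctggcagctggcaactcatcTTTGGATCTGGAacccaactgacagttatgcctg
Traj37: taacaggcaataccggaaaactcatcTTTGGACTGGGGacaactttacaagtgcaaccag
Traj36: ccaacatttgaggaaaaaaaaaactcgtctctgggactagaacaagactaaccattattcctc
Traj42: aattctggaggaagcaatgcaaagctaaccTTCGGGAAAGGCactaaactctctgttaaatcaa

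Total counts per library ranged from 9941014 to 25473404 in Top3b-KO and from 15262060 to 15860287 in WT, and Top3b-KO replicate 3 had the fewest. Top3b itself was at 49.8 ± 1.66 CPM (a gene's counts relative to its library's total, scaled with TMM factors) in Top3b-KO and 91.0 ± 4.06 CPM in WT (SD, n = 3 each). It fell: edgeR's quasi-likelihood test gave a log2 fold change of -0.87, with Benjamini-Hochberg adjusted p = 5.78e-06 over all genes. The spleen label was met by B cell, T cell and myeloid markers, each list with all its members detected. The 6 B cell genes summed to 2889 to 3006 CPM in Top3b-KO and 2799 to 3225 CPM in WT. The 12 T cell genes summed to 1779.9 to 1840.0 CPM in Top3b-KO and 1588 to 1936 CPM in WT, and their most abundant were Lck, the receptor's kinase, at 316 CPM in Top3b-KO and 303 CPM in WT, and Cd2 at 215 and 223 CPM.

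The members were present in every library but unevenly along the locus. Their summed counts were 4142, 4119 and 1629 in the Top3b-KO libraries and 2276, 2109 and 1997 in the WT libraries. At least 1 count was found for 59, 60 and 58 members in the Top3b-KO libraries and for 59 in each WT library, and 41 members had at least 10 counts in every library. J genes numbered 30 or lower took 76.1%, 73.9% and 74.1% of the summed Traj counts in Top3b-KO, against 75.8%, 73.5% and 74.1% in WT. Members from 51 to 61, at the V side, took 2.87%, 3.01% and 2.27% in Top3b-KO and 3.08%, 2.75% and 3.61% in WT. The low-numbered side next to Trac therefore held about the same, large part of the counts in all 6 libraries.

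**Figure D1:**
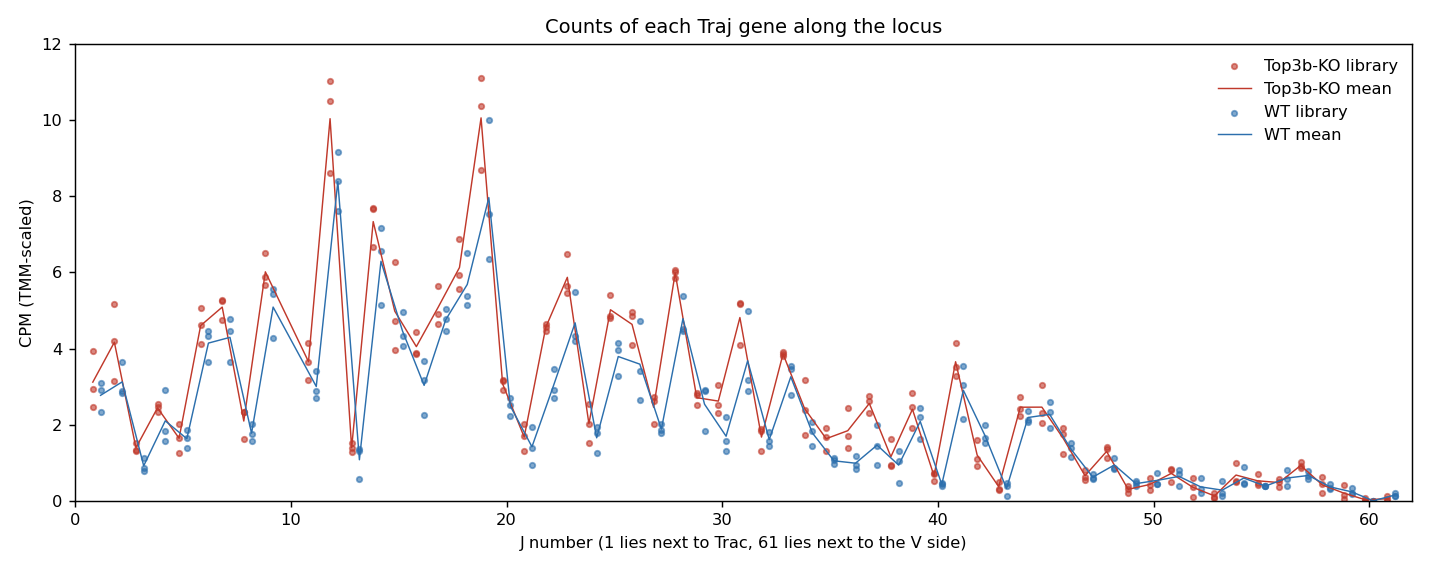
CPM (TMM-scaled, vertical axis) of the 60 Traj genes in order of J number (horizontal axis), with a point per library and a line through the mean of each genotype. Traj12 and Traj19 stood highest in both genotypes, and members numbered 47 or above stayed below 2 CPM in all libraries.

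The level per annotated length was likewise lower toward high J numbers. Over the 6 libraries, Spearman's rank correlation between J number and CPM per base across the 60 members ran from -0.768 to -0.724. This is a description, since the members of a library share its cells and its depth. By blocks of J number, the level in CPM per kilobase was 60.9 in Top3b-KO and 51.5 in WT for J1 to J10, and 96.7 and 81.7 for J11 to J20. It was 62.6 in Top3b-KO and 48.4 in WT for J21 to J30, and 37.6 and 28.2 for J31 to J40. It was 23.9 in Top3b-KO and 21.9 in WT for J41 to J50, and 6.74 and 6.40 for J51 to J61. The highest block was thus not the one nearest to Trac but the next one. All of these segments are shorter than a read (150 bases by the sample description, 101 by the protocol), so a counted read reaches outside its segment, and dividing by length corrects only in part.

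**Figure D2:**
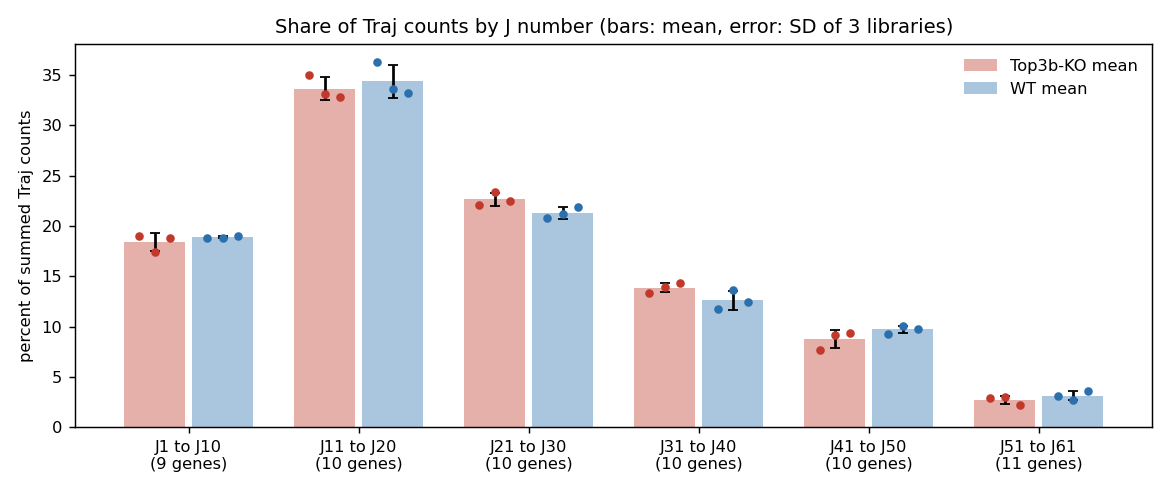
Percent of the summed Traj counts (vertical axis) that fell in each block of J numbers (horizontal axis), with a bar for the mean of 3 libraries, a point per library and the SD as error bar. The block J11 to J20 held 33.6% in Top3b-KO and 34.4% in WT, and J51 to J61 held 2.72% and 3.14%.

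Traj12 was the member with the highest mean CPM. It stood at 11.02, 10.5 and 8.60 CPM in the Top3b-KO libraries and at 9.17, 8.39 and 7.60 CPM in the WT libraries, and the genotypes overlapped. Its neighbour Traj13 had a mean of 1.39 CPM in Top3b-KO and 1.08 CPM in WT, although the annotated lengths are 58 and 57 bases. Traj19 followed, with 11.1, 10.4 and 8.70 CPM in Top3b-KO and 10.01, 7.54 and 6.35 CPM in WT. In both genotypes the lowest Traj19 level was in replicate 3, and the highest WT level lay among those of the knockout.

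The third was Traj14, listed as a pseudogene of only 34 bases. It had 7.66, 6.65 and 7.69 CPM in Top3b-KO and 7.17, 6.56 and 5.15 CPM in WT, and these values overlapped. Per length it was the highest of all members, at 200.4 CPM per kilobase over the 6 libraries, against 159 for Traj12 and 148 for Traj19. Since reads are longer than these segments, division by so short a length can raise this rank of Traj14. Neither Traj14 nor Traj19 holds the searched codons, as the sequences above show. Together the 15 members without the codons took 23.6%, 23.1% and 24.2% of Traj counts in Top3b-KO and 24.3%, 23.9% and 22.3% in WT. The 9 J pseudogenes took 9.88 ± 0.860% in Top3b-KO and 9.94 ± 0.165% in WT (SD, n = 3 each), with overlapping values.

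**Figure D3:**
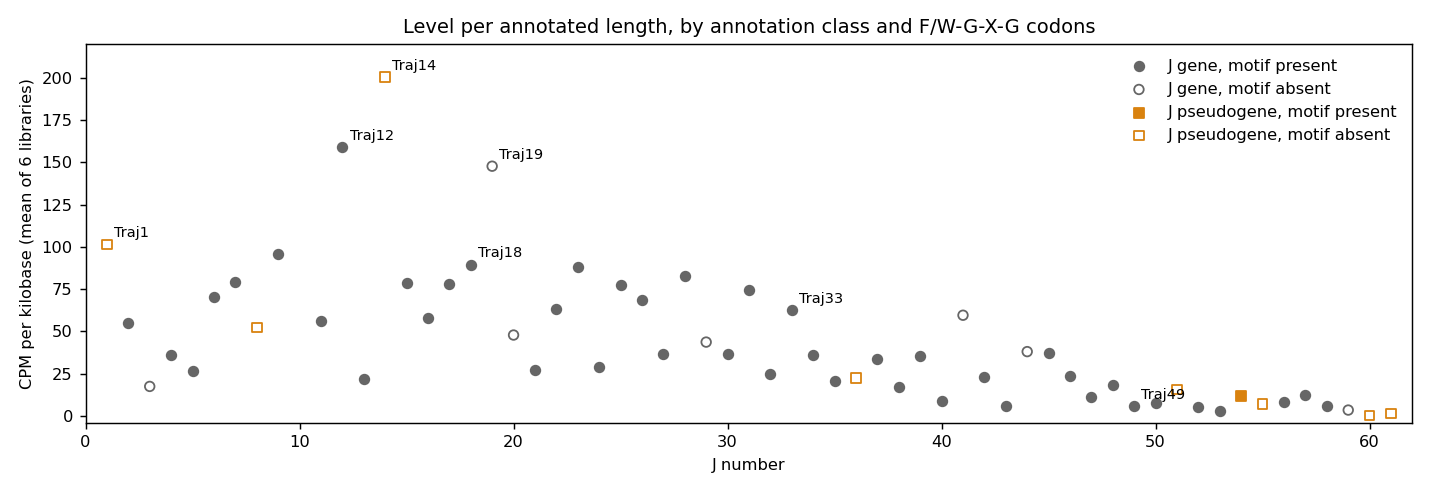
CPM per kilobase of annotated length (vertical axis, mean of 6 libraries) by J number (horizontal axis), with squares for J pseudogenes and circles for J genes, filled where the F/W-G-X-G codons were found. Members without the codons reach from 0.244 to 200.4 CPM per kilobase and those with them from 3.09 to 159.

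The next 7 members by mean CPM were Traj18, Traj9, Traj28, Traj23, Traj17, Traj15 and Traj7, whose means over the 6 libraries lay between 4.69 and 5.91 CPM. All 7 hold the codons and are numbered 28 or lower. Traj9 stood at 6.51, 5.66 and 5.87 CPM in Top3b-KO and 5.55, 5.44 and 4.27 CPM in WT, and Traj28 at 5.86, 6.02 and 6.07 CPM in Top3b-KO and 4.46, 5.38 and 4.52 CPM in WT. In both of these each knockout library lay above each WT library. Traj23 had 5.65, 6.50 and 5.46 CPM in Top3b-KO and 5.49, 4.33 and 4.21 CPM in WT. Traj17 had 5.65, 4.91 and 4.65 CPM in Top3b-KO and 4.78, 4.46 and 5.03 CPM in WT. Both overlapped between genotypes, Traj23 by its lowest knockout library alone. Traj15 had 4.71, 3.96 and 6.27 CPM in Top3b-KO and 4.97, 4.06 and 4.33 CPM in WT, and Traj7 had 5.24, 5.27 and 4.75 CPM in Top3b-KO and 4.78, 4.46 and 3.64 CPM in WT. These overlapped as well, and for Traj15 the value of Top3b-KO replicate 3 was the highest of the 6 libraries. The 10 highest members together took 41.4%, 40.3% and 38.6% of Traj counts in Top3b-KO and 42.8%, 40.5% and 40.1% in WT. In this order, the means of neighbours differed by more than either SD at the steps from Traj19 to Traj14, Traj14 to Traj18 and Traj23 to Traj17 in Top3b-KO, and at no step in WT.

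At the other end, Traj60 had counts in 1 library only, with 2 counts in Top3b-KO replicate 2. Traj61, a pseudogene next to the T early alpha promoter, had 3, 1 and 0 counts in Top3b-KO and 2, 3 and 2 in WT. A count of 0 allows up to 3 counts, which is 0.119 to 0.303 CPM by library, so no order can be read at these levels. Traj49, which has a promoter of its own in thymocytes, was also low, at 0.205, 0.396 and 0.303 CPM in Top3b-KO and 0.517, 0.459 and 0.377 CPM in WT. Counts of Traj49 ran from 3 to 10 per library, and it was too low to be tested.

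Traj18 forms the invariant alpha chain of type I NKT cells with Trav11, and Traj33 that of MAIT cells with Trav1. Traj18 was at 6.88, 5.94 and 5.56 CPM in Top3b-KO and 6.52, 5.38 and 5.15 CPM in WT, with overlap. Its partner Trav11 was at 0 counts in all 6 libraries, Trav11d had 1 count in Top3b-KO replicate 2, and Trav11n had between 0 and 6 counts per library. Trav11, Trav11d and Trav11n are near-identical copies, so how reads were split among them is uncertain. Traj33 was at 3.81, 3.92 and 3.84 CPM in Top3b-KO and 2.78, 3.54 and 3.46 CPM in WT, with each knockout library above each WT library. Trav1 had 31, 47 and 13 counts in Top3b-KO and 23, 16 and 19 in WT. The counts of these V genes are not scaled to library depth, which was unequal, so they do not compare the genotypes. By edgeR's quasi-likelihood test the log2 fold change was 0.13 (SE 0.159, adjusted p 0.960) for Traj18 and 0.24 (SE 0.186, adjusted p 0.924) for Traj33.

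The order of the J genes by their share of Traj counts was much alike in all libraries. Spearman's correlation of shares across the 60 members was 0.952 to 0.972 within Top3b-KO, 0.947 to 0.963 within WT and 0.950 to 0.966 between genotypes. The spread of member counts around a common share was close to counting error, with a chi-square sum per degree of freedom of 1.14 in Top3b-KO (50 members) and 1.18 in WT (55 members), where counting error alone gives a value near 1. Those are the members with at least 5 expected counts. The count-weighted mean J number was 21.7, 22.6 and 22.2 in Top3b-KO and 21.9, 22.3 and 22.4 in WT, and the genotypes overlapped.

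Summed over the family, Traj CPM was higher in Top3b-KO. It was 169.7, 163 and 165 CPM in the knockout libraries and 147, 138 and 125 CPM in the WT libraries, or 166 ± 3.39 against 137 ± 10.8 CPM (SD, n = 3 each), a ratio of 1.21 between the means. Each knockout library lay above each WT library. In a bulk sample, a larger number of T cells and more RNA per T cell cannot be told apart. By blocks of J number, summed CPM did not overlap between genotypes for J1 to J10 (ratio 1.18), J11 to J20 (1.18), J21 to J30 (1.29) and J31 to J40 (1.33). The ratio was 1.09 for J41 to J50 and 1.05 for J51 to J61, where the genotypes overlapped.

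Against Trac, the constant gene of the same chain, the picture was different. Trac was at 137, 134 and 134 CPM in Top3b-KO and 116, 110.3 and 138 CPM in WT, and the genotypes overlapped through WT replicate 3. edgeR's quasi-likelihood test gave Trac a log2 fold change of 0.15 (SE 0.0769), adjusted p = 0.915. There were 124, 121 and 123 Traj counts per 100 Trac counts in Top3b-KO and 127, 125 and 90.9 in WT, with means of 123 ± 1.302 and 114 ± 20.3 (SD, n = 3 each). WT replicate 3 stood apart, with the highest Trac level and the lowest Traj level of all libraries. Without it the mean over the other 2 WT libraries was 126, and the ratio of Top3b-KO to WT was 0.974 in place of 1.07. Trac itself was then at 135 CPM in Top3b-KO and 113 CPM in WT, a ratio of 1.19, beside 1.16 for Traj summed CPM. By edgeR's quasi-likelihood test in that fit, the log2 fold change of Trac was 0.26, adjusted p = 0.0758. Among members, Traj12 had 8.05, 7.81 and 6.42 counts per 100 Trac counts in Top3b-KO and 7.92, 7.61 and 5.51 in WT. Traj22, the member of smallest p, had 3.26, 3.39 and 3.48 in Top3b-KO and 2.51, 3.15 and 1.96 in WT, without overlap. Most tested members whose genotypes were apart in CPM did overlap on this scale, among them Traj9, Traj28, Traj33, Traj36 and Traj37. Traj37 had 2.00, 1.71 and 1.97 in Top3b-KO and 1.73, 1.31 and 0.683 in WT.

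Against other T cell genes the Traj sum stayed higher in Top3b-KO, though by less against the Cd3 genes. Per 100 counts of Trbc1 and Trbc2, the constant genes of the beta chain, there were 76.9, 71.5 and 75.4 Traj counts in Top3b-KO and 63.7, 62.6 and 56.0 in WT. Per 100 counts of Cd3e, Cd3d and Cd3g, which encode subunits of the receptor's signalling complex, there were 43.0, 38.8 and 42.2 in Top3b-KO and 37.2, 36.4 and 35.1 in WT. Neither ratio overlapped between genotypes. Top3b-KO over WT, the means stood at 1.23 for the beta chain denominator and 1.14 for the Cd3 genes, beside 1.21 for Traj summed CPM. Trbc1 and Trbc2 together were at 222 ± 4.98 CPM in Top3b-KO and 225 ± 5.01 CPM in WT (SD, n = 3 each), and that difference was smaller than the spread. Whether the Traj sum differs between genotypes thus depends on the T cell gene it is set against and, for Trac, on WT replicate 3.

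**Figure D4:**
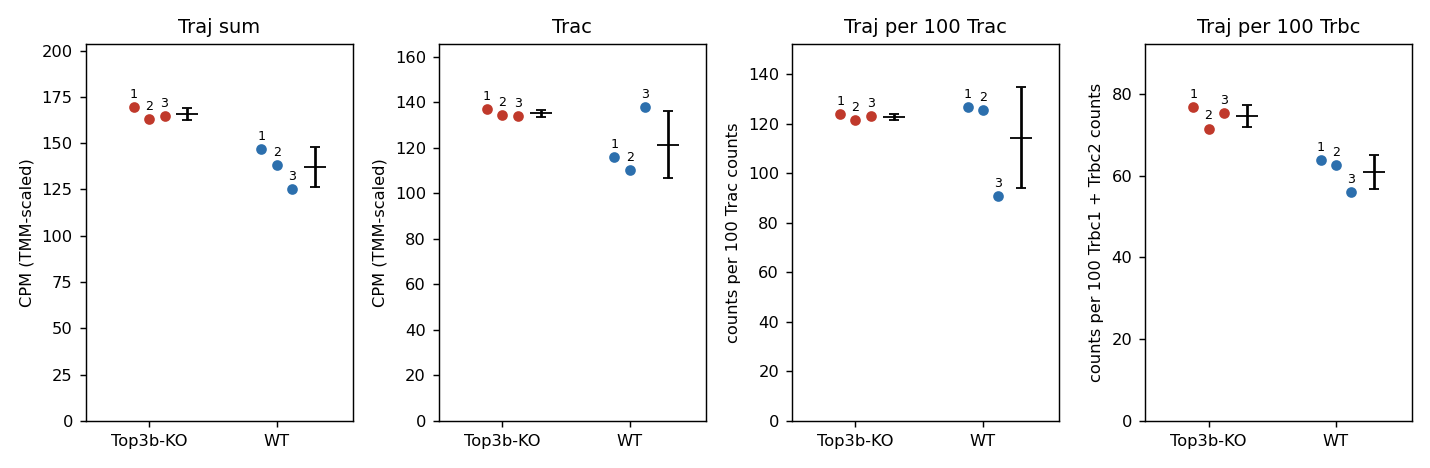
From left to right, summed Traj CPM, Trac CPM, Traj counts per 100 Trac counts, and Traj counts per 100 Trbc1 and Trbc2 counts (vertical axes) in each Top3b-KO and WT library (points numbered by replicate), with the mean and SD of 3 libraries beside them. Top3b-KO libraries lie above WT libraries in the first and last panels, and WT replicate 3 sits apart in the Trac panels.

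Gene by gene, the test ran over 18716 genes, of which 46 were members. The 14 members that were too low to be tested are all numbered 40 or above. With edgeR's quasi-likelihood test and Benjamini-Hochberg adjustment, 0 of the 46 passed an adjusted p of 0.05 in either direction, where 0.00534% of all tested genes passed as higher and 0.00534% as lower. Adjusted p-values of the members ran from 0.670 to 0.989. At an unadjusted p under 0.05, 9 members were higher (19.6%) and 0 lower, where 1.83% of all tested genes were higher and 3.69% lower. Without Top3b-KO replicate 1, 4 of 48 tested members were higher at an unadjusted p under 0.05 (8.33%), where 2.09% of all genes tested in that fit were. Without WT replicate 3 it was 8 of 47 members (17.0%), where 5.89% of all tested genes were. DESeq2 gave 3 of 46 members as higher at an unadjusted p under 0.05 (6.52%), where 1.01% of all tested genes were, and 0 past the adjusted threshold among the 19 to which it assigned an adjusted p.

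The log2 fold changes of the tested members were mostly above 0. They were so for 44 of 46 members, beside 49.1% of all tested genes, with a median of 0.29 beside -0.0029 over all tested genes. Every Top3b-KO library lay above every WT library for 14 of the 46 members, where 5.39% of all tested genes did so, and the reverse held for 0 of 46, where 5.63% did. The first count was 24 of 46 without Top3b-KO replicate 3 and 22 of 46 without WT replicate 1, where 9.09% and 10.3% of all tested genes did so. Without WT replicate 3 it was 17 of 46 (37.0%), where 15.5% of all tested genes did so. Over all 60 members, tested or not, the mean was higher in Top3b-KO for 52, and 16 had each knockout library above each WT library. Of the 33758 symbols with a count in any library, 48.4% had the higher mean in Top3b-KO, 4.26% had each knockout library above each WT library, and 5.04% had the reverse. The single member of 60 with the reverse order was Traj61, at the counts given above. The members are read from the same T cells and the same library totals, so their counts do not add up to as many separate results, and passing the filter on low counts can favour members that are high in a group.

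The smallest p-values belonged to Traj22, Traj37 and Traj36. Traj22 was at 4.46, 4.55 and 4.65 CPM in Top3b-KO and 2.91, 3.47 and 2.70 CPM in WT, and edgeR estimated a log2 difference of 0.59 (SE 0.183, adjusted p = 0.670). Traj37 was at 2.74, 2.30 and 2.63 CPM in Top3b-KO and 2.00, 1.44 and 0.942 CPM in WT, and edgeR estimated a log2 difference of 0.80 (SE 0.265, adjusted p = 0.739). The genotypes did not overlap for either, and WT replicate 3 was the lowest library in both.

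Traj36, a J pseudogene beside Traj37, was at 1.39, 1.70 and 2.43 CPM in Top3b-KO and 0.839, 1.18 and 0.942 CPM in WT. The edgeR estimate was 0.82 on the log2 scale (SE 0.301, adjusted p = 0.829), on 13 to 43 counts per library. Traj35, the next toward Trac, had means of 1.63 CPM in Top3b-KO and 1.05 CPM in WT and a log2 fold change of 0.68. These 3 adjacent members had the largest log2 fold changes of the 46 tested members, at low counts, and each missed the threshold.

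The 2 tested members with a negative log2 fold change were Traj42 and Traj5. Traj42 was at 1.11, 1.58 and 0.910 CPM in Top3b-KO and 2.00, 1.64 and 1.51 CPM in WT, and edgeR estimated a log2 difference of -0.45 (SE 0.280, adjusted p = 0.915). Its genotypes overlapped, since Top3b-KO replicate 2 lay above WT replicate 3. Traj5 was at 1.64, 1.27 and 2.02 CPM in Top3b-KO and 1.87, 1.64 and 1.38 CPM in WT. The genotypes overlapped, with a log2 fold change of -0.05 that turned positive without Top3b-KO replicate 2 (0.13) or WT replicate 1 (0.059).

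**Figure D5:**
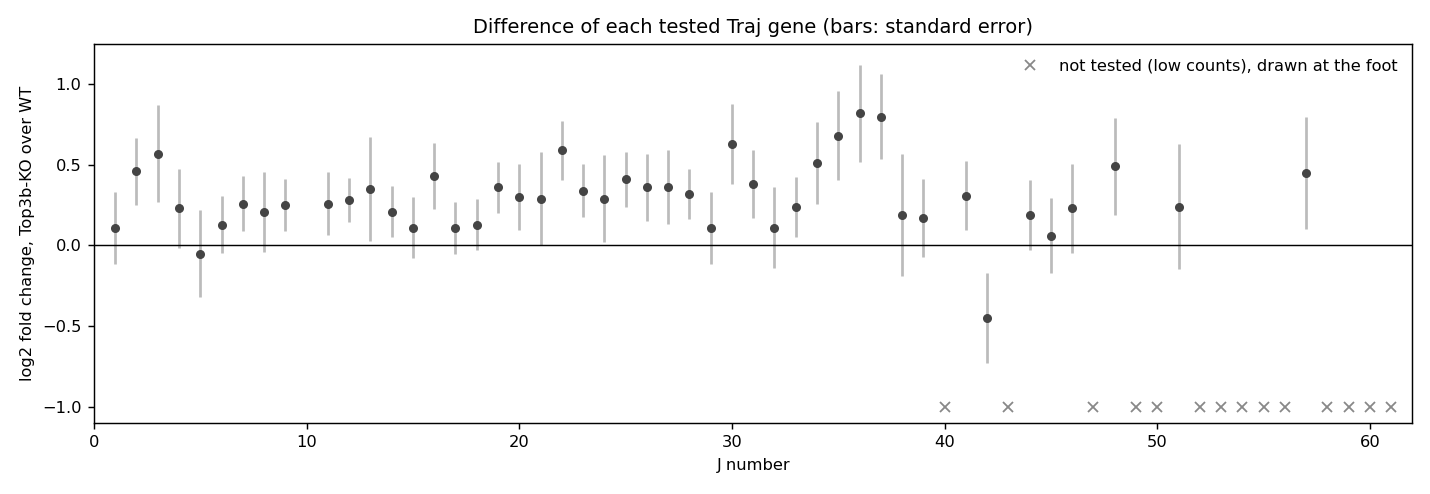
Log2 fold change of Top3b-KO over WT (vertical axis) for the 46 tested Traj genes by J number (horizontal axis), with the standard error as bar and crosses at the foot for the 14 members not tested. Of the 46 points 44 lie above 0, and Traj36 is the highest at 0.82.

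The J genes of the beta chain, read from the same T cells, had values in the same direction. The 14 Trbj genes summed to 73.2, 62.6 and 62.5 CPM in Top3b-KO and 72.2, 51.5 and 55.2 CPM in WT, with overlap. All 14 were tested, 0 passed by edgeR's adjusted p, 12 of 14 log2 fold changes were above 0, and their median was 0.13. Whether the alpha and beta J families differ in their response to genotype was not tested.

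Of the genes that make or act on the rearranged locus, 0 passed by edgeR's adjusted p in either direction. The 7 genes of the receptor complex (Trac, Trbc1, Trbc2, Cd3e, Cd3d, Cd3g and Cd247) had 5 log2 fold changes above 0 and a median of 0.061. The most abundant, Cd3e, was at 174 ± 5.27 CPM in Top3b-KO and 155 ± 5.38 CPM in WT (SD, n = 3 each), an edgeR log2 fold change of 0.17 (adjusted p = 0.829). Factors linked to the alpha chain enhancer or J promoters, 15 genes, had 12 above 0 and a median of 0.092. The 2 most abundant, Ets1 and Ikzf1, were both at 0.08, and Tcf3 was the lowest of the 3 below 0, at -0.20. The 15 genes summed to 4648 to 4766 CPM in Top3b-KO and 4319 to 4534 CPM in WT, without overlap. Much of that sum was Ets1, at 1570 CPM in Top3b-KO and 1485 CPM in WT. Any part of these factors in the Traj result was not tested. V(D)J recombination and end-joining genes, 13 tested of 15, had a median of 0.00035, with Hmgb1, a cofactor of the recombinase, at 0.00 and Atm, the damage kinase, at 0.10. Rag1 and Rag2, which encode the recombinase, and Dntt, which adds bases to the ends, were low. Before scaling to depth, Rag1 had 34, 31 and 15 counts in Top3b-KO and 18, 30 and 44 in WT. Rag2 had 0 to 2 in every library, and Dntt had 90, 76 and 30 in Top3b-KO and 47, 29 and 59 in WT. In CPM, Rag1 was at 1.38 ± 0.145 in Top3b-KO and 1.96 ± 0.801 in WT (SD, n = 3 each). Dntt was at 3.24 ± 0.383 CPM in Top3b-KO and 2.88 ± 0.913 CPM in WT. Their edgeR log2 fold changes were -0.54 (adjusted p = 0.915) for Rag1 and 0.18 (adjusted p = 0.960) for Dntt.

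Markers of other cells that could carry these transcripts were measured beside the family. Of 7 immature thymocyte genes 4 were tested, with a median log2 fold change of -0.087. Their list summed to 38.5 to 43.4 CPM in Top3b-KO and 40.4 to 44.2 CPM in WT. Most of that sum was Cd1d1, at 34.0 CPM in Top3b-KO and 35.1 CPM in WT, so it says little of the other genes. The defining gene of the list, Ptcra, the pre-T cell receptor alpha chain, was at 0 counts in every library except Top3b-KO replicate 2, which had 1. Invariant NKT and MAIT genes, 6 tested of 7, had a median of -0.024, with the 2 most abundant, Il18r1 and Izumo1r, at -0.03 and -0.04 and Zbtb16, their lineage factor, at 0.07. Gamma delta T cell genes, of which 5 of 8 symbols were in the table and tested, had a median of 0.029. Their sums were 193 to 200.2 CPM in Top3b-KO and 202 to 235 CPM in WT, without overlap. Most of that sum was Blk, also a B cell gene, at 173 CPM in Top3b-KO and 196 CPM in WT. Blk and Sox13 had log2 fold changes of -0.18 and -0.12. The receptor constant genes Trdc, Trgc1 and Trgc2 were at 0.16, 0.03 and 0.38, and 0 of the 5 passed by edgeR's adjusted p. The medians of the other lists were 0.059 for T cells, -0.074 for B cells, -0.028 for myeloid cells and -0.12 for NK cells, beside -0.0029 over all tested genes.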

How the data were processed

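Libraries were made from total RNA depleted of ribosomal RNA, per the labels' protocols, and aligned with STAR to mm39, per the submitters' processing notes. The authors deposited expected counts for each symbol, not normalized. The program, strand setting, annotation and handling of multiple matches used in counting were not given in the sources used here, and the labels describe a pair of library kits. Of 56413 symbols, 72 held a value farther than 1e-06 from a whole number, 0 of them Traj, and all values were rounded. Genes were kept by filterByExpr (18716) and tested with edgeR 4.0.16 (R 4.3.3), by the quasi-likelihood F test with TMM scaling, robust dispersion and genotype as the only term, two-sided, adjusted by Benjamini-Hochberg over all tested genes at 0.05. Alternatives used DESeq2 1.42.0 and limma 3.58.1, other scalings and filters, and a replicate block. CPM is scaled by TMM. The standard error (SE) of a log2 fold change was derived from the test, as its absolute value divided by the square root of the F statistic. Summed Traj values, ratios and shares were given no p-value. A floor of 3 counts covers counting error only.

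The members and all gene lists were chosen with earlier results of these libraries known. Genes named with values in every library are Trac, the 10 Traj genes of highest mean CPM, Traj18, Traj33, and those of smallest p in each direction (2 tested members were lower). Of each list, the 2 most abundant genes are named at most. Traj13, Traj35, Traj49, Traj60, Traj61, the low Rag1, Rag2, Dntt and Ptcra, Zbtb16 and Blk were chosen after their values were seen. So were Cd1d1, Tcf3, Sox13, Trgc1 and Trgc2.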

Additional observations from a re-analysis of the deposited data

How the results depend on the processing

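The Traj genes past an adjusted p of 0.05 numbered 0 under all 13 alternatives, and the list genes likewise. Members with a log2 fold change above 0 numbered 41 to 52 of the 44 to 60 tested. The median log2 fold change of members ran from 0.23 to 0.34, and the log2 ratio of summed CPM from 0.22 to 0.33. Members higher at an unadjusted p under 0.05, 9 in all libraries (19.6%, where 1.83% of all tested genes were), were 3 with DESeq2 (6.52%, where 1.01% were), 4 without Top3b-KO replicate 1 (8.33%, where 2.09% were), 8 without WT replicate 3 (17.0%, where 5.89% were) and 6 to 13 otherwise (12.5% to 23.9%, where 1.24% to 2.29% were). Members lower at that p numbered 0, where 2.22% to 7.26% of all tested genes were lower. The exception was the fit without Top3b-KO replicate 2, with 1 of 48 members (2.08%), where 2.35% of all tested genes were lower. Members whose genotypes did not overlap, 14 in all libraries, numbered 17 to 24 when a library was left out, with 24 of 46 without Top3b-KO replicate 3 and 22 without WT replicate 1, where 9.09% and 10.3% of all tested genes did so, and 17 without WT replicate 3 (37.0%), where 15.5% did. The log2 ratio of Traj per Trac, 0.10, was 0.30 (0.2954) with Trbc1 and Trbc2 as denominator and -0.0386 to 0.1831 when a library was left out, with the negative value without WT replicate 3. The difference in mean J number, -0.0405, ran from -0.2558 to 0.1925 when a library was left out and was 0.33 over members with at least 10 counts in every library, each within the spread of 0.377 between libraries. Traj5 changed sign without Top3b-KO replicate 2 (0.13) and without WT replicate 1 (0.059), within a range of -0.1662 to 0.1336 when a library was left out. For each, the cause was not tested.

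With the replicate number as a block, 0 Traj genes passed. At an unadjusted p under 0.05 in that fit, 9 of 46 were higher (19.6%, where 2.29% of all tested genes were). In the other direction there were 0, where 4.56% of all tested genes were lower. Deviations of libraries with the same number correlated at 0.156, -0.0067 and 0.0093, and those with different numbers at -0.0803 to 0.0781. With 3 libraries per genotype, these values cannot decide whether the numbers pair the libraries. The shallowest library, Top3b-KO replicate 3, limits low members most: its 3-count floor is 0.303 CPM.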
